A study of Mus musculus with 4 samples.

Results

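The testicular macrophage genes examined here were *Csf1r*, *Cd68*, *Cd163*, *Mrc1*, *Cd74*, *H2-Aa*, *H2-Ab1*, *C1qa*, *C1qb* and *Lyz2*, 10 genes chosen by name, of which 9 were among the 12415 genes listed with exon sense reads. *Nef-sp* encodes a testis-specific nuclear RNA exonuclease, and the comparison asked how its loss bears on the testicular transcriptome. Total RNA of testes from adult C57Bl/6J mice at postnatal day 60 was sequenced in 2 *Nef-sp*-/- libraries (knockouts) and 2 *Nef-sp*+/- libraries (heterozygotes). The mutant allele has a 23-bp deletion that shifts the reading frame, made with Cas9 nickase and paired guide RNAs. Both groups carry this allele, on 1 chromosome in the heterozygotes, which served as the control, and no wild-type library was analysed here. The labels do not state that the replicates came from separate animals, so the p-values measure only the spread between these libraries, which may be technical. *Cd163*, the scavenger receptor for haptoglobin-bound hemoglobin, was not analysed here, since the table lists no exon sense reads under its name. *Cd68* had 11 reads in the 4 libraries together and did not pass the expression filter, which left 8 genes that were tested.

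Macrophages are the main immune cells of the testis. They lie in the interstitium beside the Leydig cells and along the seminiferous tubules, clear debris, and are known to support steroid production and the immune tolerance of germ cells. Their survival depends on the CSF1 receptor. Macrophages take up material through scavenger and mannose receptors, digest it in lysosomes, present peptides on MHC class II and secrete complement C1q and lysozyme. In mouse testis, the macrophages around the tubules are known to be rich in MHC class II, and those of the interstitium to be rich in the CSF1 receptor and the mannose receptor.

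Promoter stretches of MHC class II, C1q, lysozyme and mannose receptor genes are shown because the values below turn on these genes. RefSeq promoters on build GRCm38.p6, each spanning 250 bases before to 50 bases after a gene's start, were found for 6 of the 10 genes. *H2-Ab1* and *C1qa* were among those without one and were not searched. The Y box, CTGATTGG, an inverted CCAAT element typical of MHC class II promoters, was searched on both strands and was present in 4.1% of 32851 promoters. Among the 6 it was found in 1, 51 bases upstream of *H2-Aa* (minus strand). It also lay 62 bases upstream of *H2-Eb1* (plus strand), the gene of another MHC class II chain, which was not among the 10 genes. Both matches are in capitals below.
H2-Aa, chr17:34287837-34287904: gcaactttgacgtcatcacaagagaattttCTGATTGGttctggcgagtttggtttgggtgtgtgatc
H2-Eb1, chr17:34305775-34305842: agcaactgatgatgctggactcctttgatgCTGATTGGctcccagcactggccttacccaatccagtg

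The second motif was AGGAAGT, a core recognised by ETS factors, among them the myeloid factor PU.1. It occurred in 9.35% of all promoters on either strand, and both motifs were picked after the sequences were seen. It was present in 3 of the 6 promoters, those of *C1qb*, *Lyz2* and *Mrc1*, and also in that of *C1qc*, the gene of the third C1q chain. In each it lay on the strand opposite to the gene, so that the capitals below read ACTTCCT. *C1qb*, *C1qc* and *Lyz2* are on the minus strand and *Mrc1* is on the plus strand. A match describes these letters in the window and not a site in use.
C1qb, chr4:136886217-136886283: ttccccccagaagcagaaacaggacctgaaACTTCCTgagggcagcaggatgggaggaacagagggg
C1qc, chr4:136893073-136893139: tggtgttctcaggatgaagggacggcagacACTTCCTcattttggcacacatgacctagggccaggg
Lyz2, chr10:117282336-117282402: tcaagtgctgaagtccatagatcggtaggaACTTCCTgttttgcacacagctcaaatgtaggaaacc
Mrc1, chr2:14229173-14229239: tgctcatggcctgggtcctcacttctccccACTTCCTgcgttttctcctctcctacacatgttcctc

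The libraries held between 20659865 and 34442517 reads over all annotation categories, and heterozygous replicate 2 was the deepest. The targeted gene, listed as 2610020H08Rik, had normalized exon sense counts of 1843 and 1693 in the heterozygotes and of 407 and 497 in the knockouts, a log2 fold change of −1.97. A normalized count is the read count divided by the effective size of its library, relative to the mean of the 4 libraries. Across all exon sense features, 1 of 10728 passed an adjusted p of 0.05 in edgeR's quasi-likelihood test, and that feature was 2610020H08Rik. The count of features called was 252 without heterozygous replicate 2 and 41 without heterozygous replicate 1.

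None of the 8 macrophage genes tested differed between the genotypes at the adjusted threshold, in a comparison where 0.00932% of all features were called. DESeq2 called none of the 8 either, and 0.0186% of all features. At an unadjusted p below 0.05 there was 1 of the 8, *C1qa*, beside 4.8% of all features. Log2 fold changes of knockouts over heterozygotes were between −0.43 for *Cd74* and 0.11 for *Mrc1*, with a median of −0.20, while the median over all features tested was −0.0002. The median of the 8 was −0.11 without knockout replicate 2 and −0.13 without heterozygous replicate 2. Of the 8 genes, 7 had a value below 0. In 3 genes both knockout libraries were below both heterozygous libraries, and in none were both above. Over all features, the genotypes did not overlap in 34.5%, and both knockout libraries were the lower in 18.1%. The normalized counts of the 9 listed genes summed to 1716 and 1741 in the heterozygotes and to 1599.5 and 1737 in the knockouts, and these sums overlapped. *Mrc1* held the largest share of these sums. Without it, the other 8 genes summed to 923 and 975 in the heterozygotes and to 838 and 814 in the knockouts, both lower. *Mrc1* was left out after the values were seen, and it was the only gene tested with a value above 0. No share over all features was computed for such a sum. No difference was called for these genes. In whole-testis RNA, the number of macrophages, the RNA per macrophage and reads from other cells cannot be told apart.

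**Figure D1:**
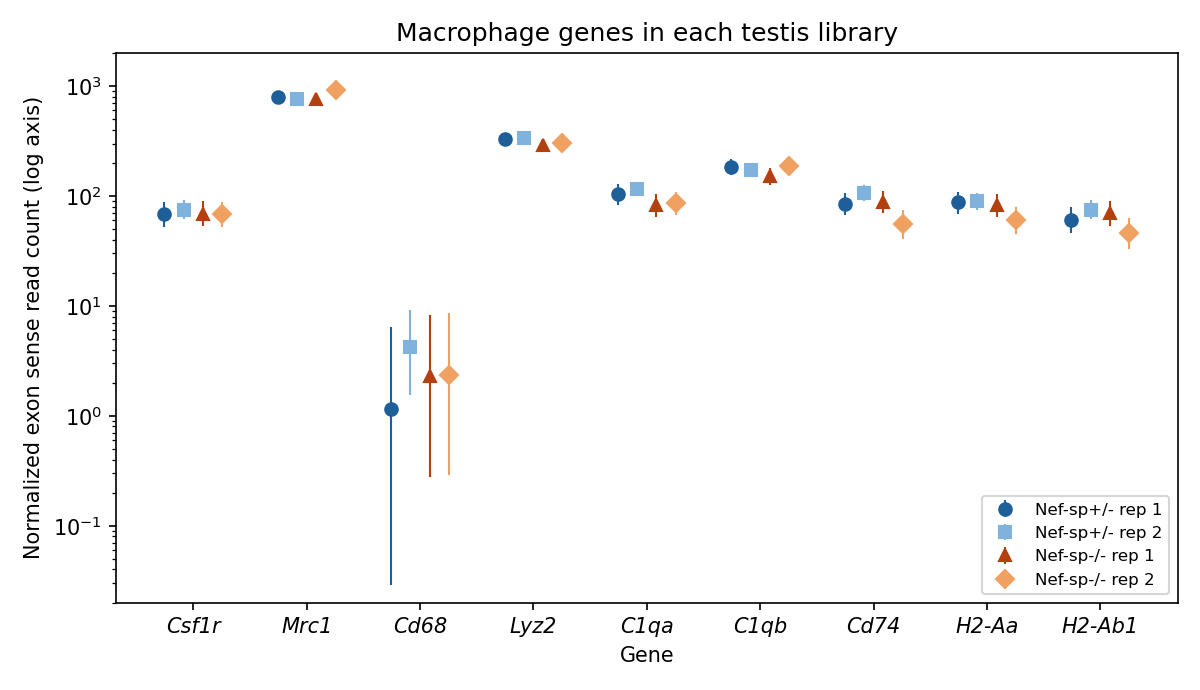
Normalized exon sense read counts (log axis) of the 9 macrophage genes with a row, in each of the 4 libraries. Points are libraries and bars are exact 95% Poisson intervals of the count, which cover counting error only. *Mrc1* is the highest in every library and *Cd68* lies at a few reads, and the MHC class II genes are lowest in knockout replicate 2.

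*Csf1r* encodes the receptor for CSF1 and IL34, on which tissue macrophages depend. Its normalized counts were 69.1 and 75.3 in the heterozygotes and 69.3 and 68.6 in the knockouts. The genotypes overlapped, and *Csf1r* was the member with the least spread over the libraries, with a coefficient of variation of 4.52%. Counting error was larger than this spread, since the exact 95% Poisson interval in knockout replicate 2 alone ran from 52.1 to 88.7. The log2 fold change was −0.08 (SE 0.167, edgeR adjusted p = 0.978), with a 95% interval from −0.45 to 0.29. The 4 libraries held 285 reads of this gene in all.

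*Mrc1*, the mannose receptor CD206, binds and internalises mannosylated glycoproteins. It had 793 and 765 normalized counts in the heterozygotes and 761 and 923 in the knockouts. Replicate 2 of the knockouts stood above the other 3 libraries, which lay close together. With a log2 fold change of 0.11 (SE 0.0892, edgeR adjusted p = 0.954) and a 95% interval from −0.08 to 0.31, *Mrc1* was the most precisely measured of the receptors. Without that library, the log2 fold change was −0.028. Of the genes tested, *Mrc1* alone had a value above 0.

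*Cd68* encodes a glycoprotein of lysosomes and late endosomes and is a standard macrophage marker. Its raw counts were 1 and 6 in the heterozygotes and 2 in each knockout library. The exact 95% Poisson intervals of the normalized counts ran from 0.0291 to 6.41 in the lowest library and from 1.55 to 9.20 in the highest, and they overlapped. No fold change is given for this gene.

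*Lyz2* encodes the lysozyme of macrophages and other myeloid cells. The normalized counts were 331 and 334 in the heterozygotes and 291 and 305 in the knockouts, and the genotypes did not overlap. The means were 332.6 ± 1.64 and 298.1 ± 10.1 (SD, n = 2 each). The difference on the log2 scale was −0.16 (SE 0.0891, edgeR adjusted p = 0.954), with a 95% interval from −0.36 to 0.04. *Lyz2* was also the only member with reads in another annotation category, with 1, 1, 3 and 0 exon antisense reads in heterozygous replicates 1 and 2 and knockout replicates 1 and 2. Of its 1264 stretches of 50 bases, 195 (15.4%) occur in transcripts of *Lyz1*, the adjacent lysozyme gene, which had no row, so that reads of *Lyz1* may be among those counted for *Lyz2*. Neutrophils also make this lysozyme. Of 12 granulocyte and mast cell genes, only *Mpo* had a row, with 37.3 to 39.1 normalized counts in the heterozygotes and 35.5 to 38.1 in the knockouts, and its part in the *Lyz2* reads was not tested.

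*C1qa* and *C1qb* encode the A and B chains of C1q, which recognises immune complexes and dying cells and starts the classical complement pathway. *C1qa* had normalized counts of 104 and 116 in the heterozygotes and of 82.0 and 86.4 in the knockouts. Both knockout libraries were the lower. The means were 109.9 ± 8.92 and 84.2 ± 3.10 (SD, n = 2 each), and the knockout mean was 76.6% of the other. Its log2 fold change of −0.40 (SE 0.15) had a 95% interval from −0.73 to −0.07 and an unadjusted p of 0.0231 in edgeR's quasi-likelihood test, with an adjusted p of 0.954, so that it failed the correction over all features. *C1qb* had 184 and 174 normalized counts in the heterozygotes and 151 and 189 in the knockouts. These overlapped, and the log2 fold change was −0.07 (95% interval −0.36 to 0.22). It was 0.087 without knockout replicate 1.

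The third chain, encoded by *C1qc*, lies in the same gene cluster and was not among the 10 genes. Its normalized counts of 115 and 109 in the heterozygotes and 106 and 109 in the knockouts gave a log2 fold change of −0.05 (95% interval −0.36 to 0.25). Ratios of these genes within a library do not depend on how libraries are scaled. There were 0.562 and 0.668 *C1qa* reads for each *C1qb* read in the heterozygotes, and 0.542 and 0.456 in the knockouts. Relative to *C1qc*, *C1qa* had ratios of 0.9 and 1.06 in the heterozygotes and 0.772 and 0.793 in the knockouts. Both ratios were lower in both knockout libraries. In a two-sided exact permutation test each had p = 0.333, the smallest that 2 libraries against 2 allow. *C1qb* reads for each *C1qc* read were 1.6 and 1.59 in the heterozygotes and 1.42 and 1.74 in the knockouts, and overlapped. Of 6 such ratios computed, the other 4 had a raw exact permutation p between 0.667 and 1, and with Benjamini-Hochberg adjustment over the 6 the p was 0.8 for all but *C1qb* over *C1qc*, where it was 1.

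**Figure D2:**
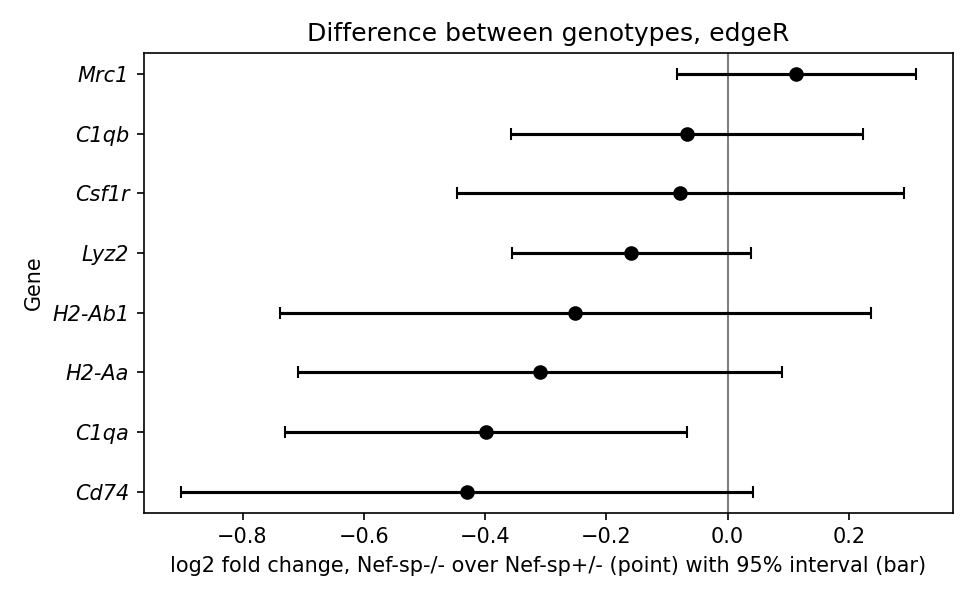
Log2 fold change of knockouts over heterozygotes for the 8 macrophage genes tested, in edgeR's quasi-likelihood fit over all exon sense features. Points are estimates and bars 95% intervals, which include 0 for every gene but *C1qa* (−0.73 to −0.07).

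The MHC class II genes were *Cd74*, which encodes the invariant chain that guides class II molecules to the endosome, and *H2-Aa* and *H2-Ab1*, which encode the α and β chains of the molecule I-A. *Cd74* had normalized counts of 85.2 and 106 in the heterozygotes and of 88.9 and 55.6 in the knockouts. For *H2-Aa* they were 87.5 and 90.1 in the heterozygotes and 83.1 and 60.3 in the knockouts. *H2-Ab1* had 61.0 and 75.3 in the heterozygotes and 70.4 and 46.1 in the knockouts. In each of the 3 genes, knockout replicate 2 was the lowest library, and knockout replicate 1 lay close to or within the range of the heterozygotes.

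Between the genotypes, the log2 fold changes were −0.43 for *Cd74* (95% interval −0.90 to 0.04), −0.31 for *H2-Aa* (−0.71 to 0.09) and −0.25 for *H2-Ab1* (−0.74 to 0.24), and the adjusted p was 0.954, 0.954 and 0.956 in edgeR. Without knockout replicate 2, the values were −0.13 for *Cd74*, −0.10 for *H2-Aa* and 0.022 for *H2-Ab1*, and without knockout replicate 1 they were −0.81, −0.56 and −0.59. Leaving out heterozygous replicate 2 gave −0.23, −0.28 and −0.06, and leaving out heterozygous replicate 1 gave −0.55, −0.33 and −0.37. The 3 genes together had 234 and 272 normalized counts in the heterozygotes and 243 and 162 in the knockouts.

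The difference between the knockout replicates was looked at after these values were seen and is a description of 2 libraries. On the log2 scale, the summed MHC class II members of replicate 2 differed from those of replicate 1 by −0.58 (exact binomial 95% interval −0.90 to −0.26, counting error only). By gene, the differences were −0.68 for *Cd74*, −0.46 for *H2-Aa* and −0.61 for *H2-Ab1*. *H2-Eb1*, whose Y box is shown above, had −0.96 (interval −1.79 to −0.18), from 48.5 to 24.8 normalized counts. Among the 2067 single features with a mean of 50 to 200 normalized counts, the band that holds *Cd74*, *H2-Aa* and *H2-Ab1*, 95% lay within 0.524 of 0 in this pair of libraries. *Cd74* and *H2-Ab1* lay outside that spread and *H2-Aa* within it. The spread is pooled over the band, and *H2-Ab1*, with a mean of 63.2, is near its low end, where counting error is larger. The interval of *H2-Ab1* itself ran from −1.23 to −0.007. In the same pair, the C1q members differed by 0.24 (interval −0.04 to 0.52) and *Csf1r* and *Mrc1* together by 0.26 (0.11 to 0.40), in the opposite direction to the MHC class II members. *Csf1r* itself differed by −0.01, *C1qa* by 0.08 and *C1qb* by 0.32, each with an interval that includes 0.

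Between the heterozygous replicates, the summed MHC class II members were 0.22 higher on the log2 scale in replicate 2 than in replicate 1, with an interval from −0.03 to 0.47 that includes 0, and the C1q members differed by 0.01. MHC class II is also made by dendritic cells and B cells. Of 8 dendritic cell genes, 3 had a row, with summed normalized counts of 59.2 to 78.3 in the heterozygotes and 55.6 to 62.4 in the knockouts, and *Xcr1*, *Clec9a* and *Zbtb46* had none. Of 7 B cell genes, 2 had a row, and they summed to 16.1 to 16.9 and 15.4 to 20.8 normalized counts. *Flt3* was lowest in knockout replicate 2 (39.1 and 31.7 normalized counts in the heterozygotes, 40.4 and 23.7 in the knockouts). *Itgax* was lowest in knockout replicate 1 (36.8 and 25.4, then 19.6 and 28.4). These rest on 20 to 45 reads a library for *Flt3* and 17 to 36 for *Itgax*. *Ccr7* had 2, 3, 2 and 3 reads in heterozygous replicates 1 and 2 and knockout replicates 1 and 2, too few to test. The part of these cells in the MHC class II reads was not tested.

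**Figure D3:**
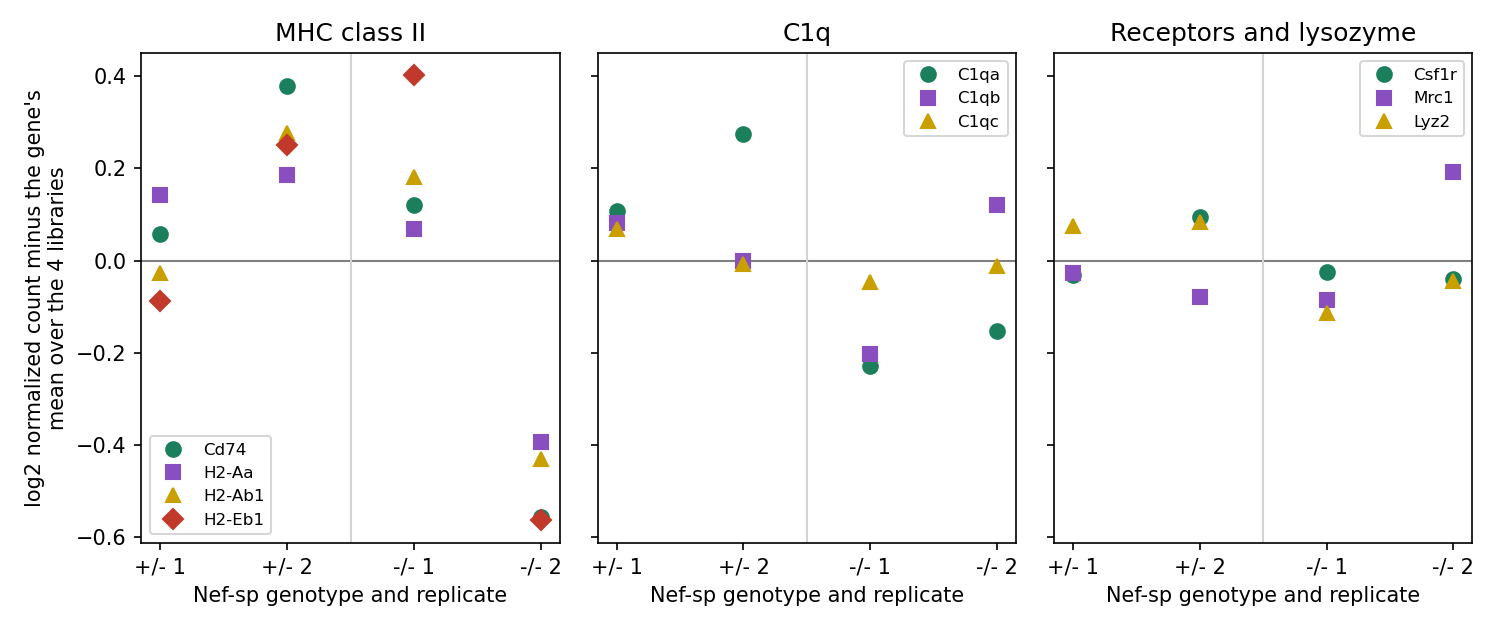
Log2 normalized count of each gene minus its mean over the 4 libraries, by role, for the 8 macrophage genes tested and for *C1qc* and *H2-Eb1*. In knockout replicate 2 all 4 MHC class II genes are the lowest of their libraries, while *C1qb* and *Mrc1* are at their highest.

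Levels were compared between the genes per kilobase of annotated exon. *Lyz2* was the highest, with a mean of 240.2 normalized counts per kilobase over the 4 libraries. *C1qb* followed with 160.6, *Mrc1* with 136.3, *C1qa* with 93.3, *Cd74* with 59.6, *H2-Aa* with 40.4, *H2-Ab1* with 38.5, and *Csf1r* with 13.5, while *Cd68* ranged from 0.916 to 3.36. *Lyz2* was above *C1qb* in every library without overlap of their ranges, as *Mrc1* was above *C1qa*, *C1qa* above *Cd74*, *H2-Ab1* above *Csf1r* and *Csf1r* above *Cd68*. The ranges of *C1qb* and *Mrc1* overlapped, although *C1qb* was the higher in each of the 4 libraries, and the same held for *Cd74* and *H2-Aa*. *H2-Aa* and *H2-Ab1*, the chains of 1 molecule, could not be ordered, since each was the higher in 2 libraries. *Mrc1* stood 10.1 times above *Csf1r* per kilobase. The exon lengths are those of GENCODE vM1, and the gene models that the authors counted on are not given in the sources used here.

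In mm9, *C1qa* (chromosome 4, 136451832 to 136454718) and *C1qb* (136436044 to 136442102) lie on the minus strand with *C1qc* (136445719 to 136448980) between them. *H2-Aa* (chromosome 17, 34406276 to 34424772, minus strand) and *H2-Ab1* (34400154 to 34406363, plus strand) meet at their ends and overlap on opposite strands, which strand-specific reads tell apart. *Lyz2* lies on chromosome 10 (116714390 to 116719377), *Cd68* on chromosome 11 (69477715 to 69479655), *Mrc1* on chromosome 2 (14151041 to 14253684), and *Csf1r* (61265226 to 61291803) and *Cd74* (60963502 to 60972300) on chromosome 18. Apart from *Lyz2*, none of the 9 genes with a row shared a stretch of 50 bases with annotated coding transcripts of another gene. *Mrc1* contains *Mir511* and *Cd74* overlaps AC139759.1 on the same strand, and reads there cannot be assigned to 1 of the pair by strand. No member had intron sense reads listed, so that unspliced RNA of these genes could not be compared.

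The label of the genes as macrophage genes was checked against 35 further macrophage and monocyte genes. Of these, 23 had a row and 12 were tested. Several defining markers were close to the lower limit of the table, where every listed feature has at least 5 reads in all. *Ptprc*, the pan-leukocyte phosphatase CD45, had 4, 2, 2 and 2 reads in heterozygous replicates 1 and 2 and knockout replicates 1 and 2. *Adgre1*, which encodes the F4/80 antigen and is listed under the older symbol *Emr1*, had 12, 22, 16 and 11 in the same order, and *Itgam*, *Spi1* and *Fcgr1* had no row. *Fcgr3*, an activating receptor for immunoglobulin G, had 152, 231, 131 and 120.

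None of the 12 genes tested passed the adjusted threshold, none had an unadjusted p below 0.05, and DESeq2 called none. Their median log2 fold change was −0.08, with 5 above 0 and 7 below, from −0.23 to 0.23. The most abundant were *Aif1*, which encodes the actin-binding protein IBA1, *Lgmn*, an endosomal protease, and *Mpeg1*, which encodes perforin-2. *Aif1* had 5618 and 10083 reads in the heterozygotes and 6441 and 6130 in the knockouts, which on the log2 scale was a fold change of 0.11 (edgeR adjusted p = 0.954). The genotypes did not overlap for *Aif1*, with both knockout libraries the higher. At a mean of 4611 normalized counts per kilobase *Aif1* stood above all 9 listed macrophage genes, with *Csf1r* at 13.5. On this scale, the germ cell genes looked at ranged from 1629 (*Piwil1*) to 191900 (*Prm2*). Which cells gave the *Aif1* reads was not tested. *Lgmn* had a log2 fold change of −0.08, and *Mpeg1* one of 0.10. The summed counts of the list lay between 8050 and 8655 in the heterozygotes and between 8711 and 8989 in the knockouts, most of them from *Aif1*.

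Of the 14 genes for CSF1 receptor ligands and signalling, 8 had a row and 5 were tested, and neither the adjusted threshold nor an unadjusted p of 0.05 was passed by any. *Csf1*, the ligand, had 3 and 5 reads in the heterozygotes and 5 and 9 in the knockouts, too few to test, and *Il34*, the other ligand, had no row. *Cbl*, the ubiquitin ligase that marks the activated receptor for degradation, had a log2 fold change of 0.05. *Stat3*, a transcription factor, had 0.04 and *Inpp5d*, which encodes the phosphatase SHIP1, had −0.08. These genes are expressed in many cell types.

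Of 16 further genes of MHC class II presentation, 10 had a row and 9 were tested. None was called and none had an unadjusted p below 0.05, with a median log2 fold change of 0.03. *H2-Eb1* had −0.12 (95% interval −0.77 to 0.53). *H2-DMa* and *H2-DMb1*, which encode the chains of the peptide exchange factor, had 0.20 and 0.10, and *Ctss*, the protease that trims the invariant chain, had −0.19. Between the knockout replicates, *H2-DMa* differed by 0.24, *H2-DMb1* by −0.13 and *Ctss* by −0.23 on the log2 scale, with intervals that include 0 in each case. *Ctsl*, *Rfx5* and *Rfxap*, the most abundant of the list, had log2 fold changes of 0.07, 0.02 and 0.09. *Ctsl*, an endosomal protease, accounted for most reads of the list. *Ciita*, the master regulator of class II genes, had no row.

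Among 22 further complement genes, 16 had a row and 13 were tested. None was called, and 2 had an unadjusted p below 0.05, among them *C3* with 0.0352 (adjusted p = 0.954 in edgeR). *C3*, the central component, had 36.8 and 45.1 normalized counts in the heterozygotes and 31.2 and 23.7 in the knockouts, a log2 fold change of −0.60 (SE 0.251). The genotypes did not overlap for *C3*, which was named after its values were seen. *C1ra* and *C1s*, the proteases that bind C1q, had −0.06 and −0.03. The median over the 13 genes was −0.05. *Calr*, *Cd55* and *Serping1*, the most abundant, had 0.03, 0.07 and −0.07.

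Lysosomal and scavenger genes were measured with more reads. Of 17 genes, all had a row and 16 were tested, with a median log2 fold change of −0.01 and values from −0.15 to 0.29. None was called, and 1 had an unadjusted p below 0.05. *Lamp1*, a lysosomal membrane protein, had 0.04, and *Hexa* and *Ctsd*, lysosomal hydrolases, had 0.02 and 0.03.

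**Figure D4:**
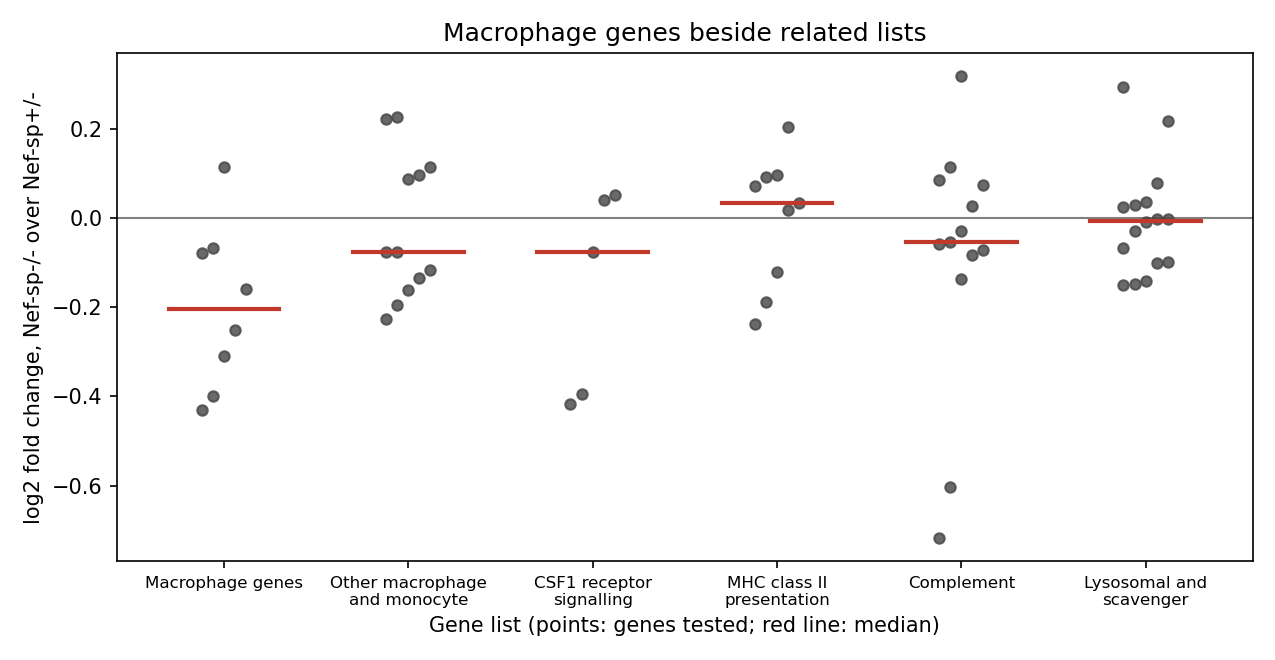
Log2 fold change of knockouts over heterozygotes for each tested gene of the macrophage set and of 5 related lists. Points are genes and red lines medians, which lie at −0.20 for the 8 macrophage genes and between −0.08 and 0.03 for the other lists. No point passed the adjusted threshold.

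Other cells of the testis were checked beside these genes. *Cd3d*, a T cell receptor subunit, had 59.8 and 76.8 normalized counts in the heterozygotes and 99.3 and 128 in the knockouts, a log2 fold change of 0.70 (adjusted p = 0.922 in edgeR), but the other 12 T and NK cell genes had no row. *Hba-a2*, an α-globin gene of red blood cells, had 238 and 332 in the heterozygotes and 194 and 200 in the knockouts (log2 fold change −0.57, adjusted p = 0.922 in edgeR). *Alas2*, the erythroid heme synthesis enzyme of the same list, had 218 and 187 in the heterozygotes and 226 and 244 in the knockouts (log2 fold change 0.23, adjusted p = 0.954 in edgeR), both knockout libraries being the higher. *Hbb-b1*, the third gene with a row, had 15.0 and 26.1 normalized counts in the heterozygotes and 15.0 and 10.6 in the knockouts, which overlapped. Its log2 fold change was −0.75 (adjusted p = 0.954 in edgeR), and the median of the 3 was −0.57. The 3 erythroid genes listed of 6 summed to 471 and 545 normalized counts in the heterozygotes and to 435 and 454 in the knockouts. The 8 Leydig cell genes, which mark the steroid-producing neighbours of macrophages, summed to 19810 and 19917 in the heterozygotes and to 18852 and 16436 in the knockouts. *Cyp17a1*, *Cyp11a1* and *Star* were lowest in knockout replicate 2, while *Hsd3b1* and *Insl3* were highest there. Of the 8, 5 had a log2 fold change above 0, with a median of 0.05. Both knockout libraries were the lower in 3 of the 8, beside 18.1% of all features. Among the 3 were *Cyp11a1* (log2 fold change −0.35) and *Cyp17a1* (−0.27). Their unadjusted p in edgeR's quasi-likelihood test was 0.00148 and 0.0042, where 4.8% of all features were below 0.05. For *Cd3d* and *Hba-a2* the unadjusted p was 0.00309 and 0.00307 in the same test. None of these genes passed the adjusted threshold, and the part of blood or interstitial content in the macrophage values was not tested.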

How the data were processed

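Total testicular RNA from 2 *Nef-sp*-/- and 2 *Nef-sp*+/- libraries was depleted of ribosomal RNA and sequenced with strand for 50 cycles. Per the study's methods, the authors had adapters trimmed and reads aligned to mm9 with another laboratory's in-house software and discarded any read with a mismatch, and the deposited values are raw read counts for each feature by annotation category and strand. Their gene models, and how reads with several matches were counted, are not given in the sources used here. The deposited table also holds a mean normalized signal and the authors' own DESeq2 comparison (log2 fold change, p-value and adjusted p-value), none of which was used.

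Gene exon sense counts were filtered with filterByExpr (minimum count 10), scaled by TMM and compared with edgeR's quasi-likelihood test (edgeR 4.0.16, limma 3.58.1, R 4.3.3) with Benjamini-Hochberg adjustment over 10728 of 12415 features, at a threshold of 0.05 and with no covariate. DESeq2 1.42.0, other scalings and filters, a replicate block and leaving out each library were alternatives, and the fit was tested on simulated data. Total counts per library were 20659865 to 34442517, and Poisson and binomial intervals (95%) cover counting error only.

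All 10 macrophage genes were named, and of each other list the 3 genes of highest mean normalized count and any that passed the adjusted threshold. The lists of other cell types are given as sums or medians in place of their named genes, apart from the few named in the text, some after their values were seen. *C1qc*, *H2-Eb1*, *H2-DMa*, *H2-DMb1*, *Ctss*, *Ciita*, *C3*, *C1ra*, *C1s*, *Fcgr3*, *Csf1*, *Il34* and the markers of the label check were named after their values were seen. Members and lists were chosen with earlier results of these data known. *Adgre1* and *C1ra* were matched through older symbols. Endothelial (6 of 8 genes listed), Sertoli (6 of 8), peritubular myoid (6 of 6) and germ cell (8 of 8) lists had no gene past the adjusted threshold. Over the 3, 5, 5 and 8 genes tested, their median log2 fold changes were 0.11, −0.10, −0.02 and 0.09. The values ran from −0.65 to 0.28, −0.24 to 0.12, −0.16 to 0.09 and −0.14 to 0.18. Some results for single genes are not reported here.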

Additional observations from a re-analysis of the deposited data

How the results depend on the processing

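None of the macrophage genes was called under any alternative, the lowest adjusted p of edgeR or DESeq2 among the 8 being 0.461 for *Cd74* without heterozygous replicate 1 (range over its alternatives 0.461 to 0.9997). Of 80 values of single genes under alternatives, 77 kept their direction and side of the threshold. The other 3 came from leaving out 1 library: *C1qb* was 0.087 without knockout replicate 1 (range over single libraries left out −0.23 to 0.087), and without knockout replicate 2 *Mrc1* was −0.028 (−0.028 to 0.25) and *H2-Ab1* was 0.022 (−0.59 to 0.022). The cause was not tested. The median log2 fold change of the macrophage genes, −0.20, was −0.25 with no expression filter, where *Cd68* enters as the ninth gene, and −0.24 to −0.11 with 1 library left out. With the replicate number as a block it was −0.21, with 0 macrophage genes and 1 feature called. Nothing in the labels ties equal numbers, and deviations of equally numbered libraries correlated at −0.0854. Among all features, DESeq2 called 2, and leaving out 1 library gave 1 to 252 calls, with 252 without heterozygous replicate 2 and 41 without heterozygous replicate 1. A lone library is then assumed to vary like the other group. The intron sense comparison and its alternatives gave no value, since no member has intron sense reads listed. With 39 to 151 reads a library for the MHC class II genes, the 95% intervals of their log2 fold changes span about 1 unit or less.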
